A study of Mus musculus with 12 samples.

Results

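The genes followed here were 8 members of the interleukin-1 (IL-1) family and the NLRP3 inflammasome, picked by gene symbol from a panel table of 750 genes, namely Il1a, Il1b, Il1rn, Il1r1, Il18, Nlrp3, Pycard and Casp1. All 8 were in the table, and all 8 passed a filter of at least 20 normalized counts in at least 3 tumors, which kept 689 genes. The values were nCounter normalized mRNA counts, obtained by counting color-coded probes on RNA molecules without amplification, in 12 mouse breast tumors. The tumors were triple negative and of K14-Cre;Brca1f/f;Trp53f/f origin. There the keratin 14 promoter drives Cre, which deletes Brca1 and Trp53 in epithelial cells. Tumor pieces were placed in a mammary fat pad of FVB/129P2 females, which are syngeneic, and grew to 150-300 mm3, so every group, vehicle included, carried both deletions in the tumor cells, whereas the host's own cells, its immune cells among them, did not come from the engineered epithelium. Whether the pieces came from 1 donor tumor, and the age of the recipients, are not given in the sources used here.

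Vehicle mice (n = 3) received DMSO in saline into the peritoneum and saline into the tumor. ADU-S100 mice (n = 3) received 50 μg of this STING agonist in a single 40 μl injection into the tumor on the first day. Into the peritoneum these mice received DMSO in PBS. Olaparib mice (n = 3) received 50 mg/kg of this PARP inhibitor daily into the peritoneum, and saline into the tumor. Combination mice (n = 3) received both drugs. Tumors were harvested at 3 days. Epcam and Cdh1, which mark epithelial cells, were present in every tumor, at 4580-15844 and 3997-7677 normalized counts.

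IL-1α and IL-1β, encoded by Il1a and Il1b, are inflammatory cytokines that both bind the receptor encoded by Il1r1, which signals through MyD88 and NF-κB to chemokine and prostaglandin genes. The product of Il1rn, the IL-1 receptor antagonist, binds the same receptor without signaling and so blocks both ligands. IL-1β and IL-18 are made as inactive precursors. They are cut by caspase-1, the product of Casp1, after the sensor NLRP3 and the adaptor ASC, the product of Pycard, assemble into an inflammasome, so mRNA levels of these genes do not report release of the active cytokines. In tumors, monocytes, macrophages, neutrophils, epithelial cells and fibroblasts can all express members of this system.

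Promoter windows are shown for Il1rn, the member with the lowest p-value in the study's comparisons, and for the neighboring ligand genes Il1a and Il1b, whose levels on the deposited scale had the highest Pearson correlation of any pair of members over the 12 tumors. Each window is a RefSeq sequence of build GRCm38.p6 from 250 bases before to 50 bases after an annotated start, written 5′ to 3′ on the gene's own strand. Capitals mark matches to the NF-κB letters (GGG, then any 5 bases, then CC) or the AP-1 letters (TGANTCA), searched on both strands. No 2 capitalized matches overlap.

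Il1rn, first listed start, chr2:24336610-24336909, plus strand: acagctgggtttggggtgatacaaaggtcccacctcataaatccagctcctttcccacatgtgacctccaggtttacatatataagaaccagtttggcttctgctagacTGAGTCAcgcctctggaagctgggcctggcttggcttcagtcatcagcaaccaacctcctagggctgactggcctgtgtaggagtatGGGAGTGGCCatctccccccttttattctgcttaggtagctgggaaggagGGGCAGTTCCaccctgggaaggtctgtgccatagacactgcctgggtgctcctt
Il1a, chr2:129309923-129310222, minus strand: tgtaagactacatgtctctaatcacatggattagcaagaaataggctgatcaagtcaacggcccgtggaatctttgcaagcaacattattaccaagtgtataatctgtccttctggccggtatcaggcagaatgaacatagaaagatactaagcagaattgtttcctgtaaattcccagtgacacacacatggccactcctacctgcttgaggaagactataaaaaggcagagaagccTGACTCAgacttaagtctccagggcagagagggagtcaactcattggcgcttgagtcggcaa
Il1b, chr2:129371090-129371389, minus strand: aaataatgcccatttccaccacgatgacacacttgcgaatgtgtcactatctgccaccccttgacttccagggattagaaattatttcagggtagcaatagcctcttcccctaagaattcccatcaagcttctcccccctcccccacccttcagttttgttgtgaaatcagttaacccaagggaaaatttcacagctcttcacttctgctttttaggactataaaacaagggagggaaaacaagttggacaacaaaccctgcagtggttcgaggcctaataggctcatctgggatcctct

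With the start as position 0, the Il1rn window held an AP-1 match, TGAGTCA, at positions -141 to -135, and NF-κB letter matches GGGAGTGGCC at -54 to -45 and GGGCAGTTCC at -4 to 5. The Il1a window held an AP-1 match, TGACTCA, at -12 to -6, and the Il1b window held neither motif. Of 32841 mouse promoter windows, 50.8% held the NF-κB letters and 7.81% held the AP-1 letters. The interferon-linked letters of an ISRE (GAAA, then any 2 bases, then GAAA, in 3.44% of windows) and TTCNNNGAA (a GAS, in 8.3%) were in no window of a member. These matches describe letters in a short window and are not evidence of binding.

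Total counts ranged from 106206 to 1519471 per tumor. Each tumor's values had been multiplied by a scaling factor, between 0.589 and 10.5, to bring housekeeping genes to a common level. The olaparib tumors 1517 and 1521 had the largest and the smallest factor, whereas the combination tumors lay at 0.81 to 0.824. As a result, a probe count of 6 in tumor 1517 stands as 62.9 normalized counts. Differences are given on the log2(normalized count + 1) scale from limma fitted on all 12 tumors, with p-values adjusted by Benjamini-Hochberg over the 689 genes, and beside them the difference after all tumors were brought to 1 common median (median scaling). The median gene differed by 0.44 between ADU-S100 and vehicle, by 0.45 between olaparib and vehicle and by 0.21 between combination and vehicle, and these shifts were -0.05, 0.08 and -0.05 after median scaling. The p-values measure the spread between 3 tumors a group, and the comparisons share their vehicle, olaparib or ADU-S100 tumors.

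None of the 8 members passed an adjusted p of 0.05 in any of 8 comparisons, and 0% of the 689 genes did (limma). At an unadjusted p under 0.05, members were counted as follows. Nlrp3 passed in ADU-S100 against vehicle, where 4.79% of all genes passed. Il1rn passed in combination against vehicle, where 7.69% passed. Il1rn and Casp1 passed in combination against olaparib, where 7.26% passed. No member passed in olaparib against vehicle, where 7.26% of genes passed, or in combination against ADU-S100, where 9.14% did. The tumors carry numbers beginning with 12 (1 vehicle and 2 combination tumors) or 15. With this number series as a block 1 member passed in combination against vehicle and 0 in the other pairwise comparisons. In a fit on only the 2 groups compared, 1 member passed in ADU-S100 against vehicle and 0 in olaparib against vehicle. There 2 passed in combination against vehicle, 2 in combination against ADU-S100 and 0 in combination against olaparib. After adjustment 0 members and 2 of the 689 genes passed in combination against vehicle in that fit. In ADU-S100 against vehicle 1 member was higher and 0 lower without overlap, beside 13.9% and 1.02% of all genes. In olaparib against vehicle these were 1 and 0, beside 3.77% and 1.02%, and in combination against vehicle 3 and 1, beside 18.4% and 1.60%. In combination against ADU-S100, 1 member was higher and 2 lower, 3 of 8 in all beside 31.3% of all genes. In combination against olaparib, 1 was higher and 0 lower, beside 11.0% and 1.74%.

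**Figure D1:**
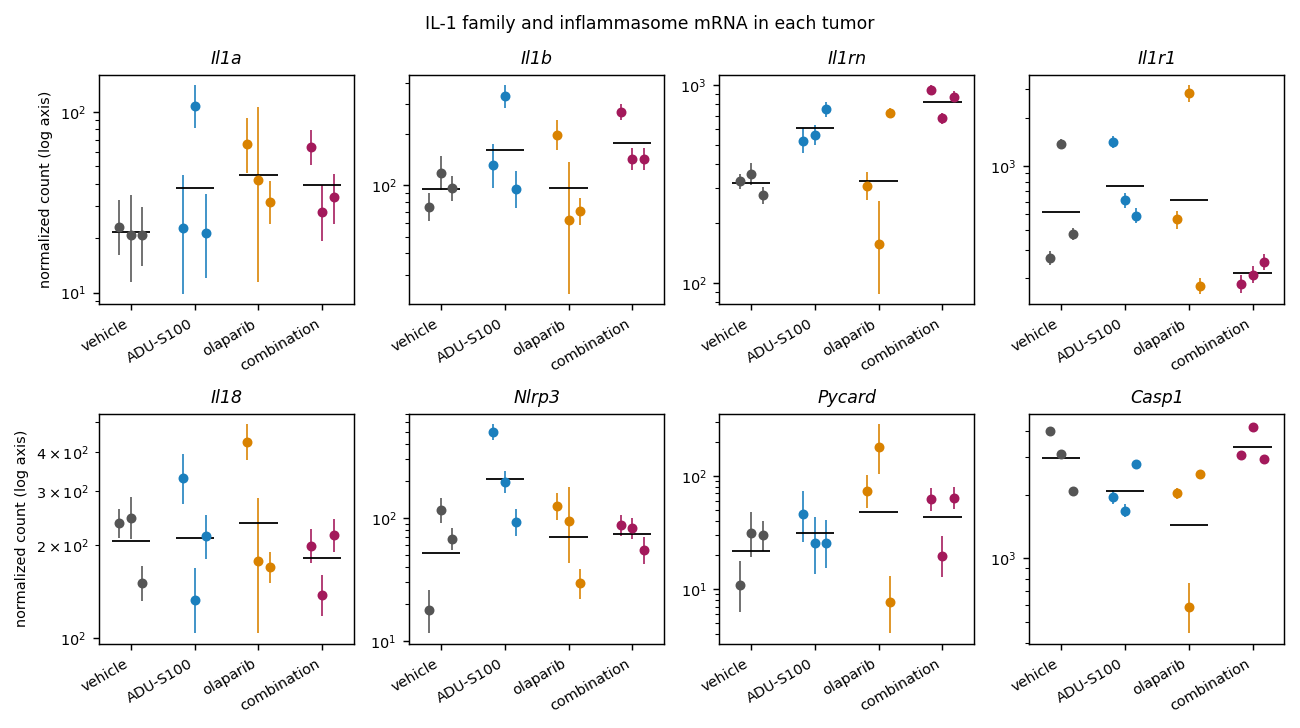
Normalized counts (log axis) of the 8 genes in each of the 12 tumors by treatment group. Points are tumors with the exact Poisson 95% interval of the probe count, which covers counting error only and not background correction. Black lines are means of the log2 values. Il1rn lay at 277-357 in vehicle and 678-949 in combination tumors, and the olaparib tumors spread widely for most genes.

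Il1a was measured at few probe counts. Its normalized counts were 23.2, 20.8 and 20.8 in the vehicle tumors and 22.8, 108 and 21.4 in the ADU-S100 tumors. They were 66.2, 41.9 and 31.8 in the olaparib tumors and 64.0, 28.0 and 33.6 in the combination tumors. Thus 2 of 3 ADU-S100 tumors lay within the vehicle level and tumor 1512 stood far above it, while every olaparib and every combination tumor lay above every vehicle tumor. The log2 difference was 1.01 (SE 0.60, adjusted p = 0.582, limma) for olaparib and 0.84 (SE 0.60, adjusted p = 0.844, limma) for the combination, or 0.65 and 0.57 after median scaling, where both groups overlapped with vehicle. The combination difference was 0.49 without tumor 1251 and 0.29 as a ratio to Ptprc. These values rested on 4 to 79 probe counts per tumor, and the 4 counts of tumor 1517 have an exact Poisson 95% interval of 1.09 to 10.2. By quantile normalization the olaparib difference was 0.19.

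Il1b had 75.0, 119 and 96.3 normalized counts in the vehicle tumors and 131, 334 and 95.6 in the ADU-S100 tumors. It had 199, 62.9 and 70.7 in the olaparib tumors and 271, 143 and 143 in the combination tumors. All 3 combination tumors were above all 3 vehicle tumors, whereas the ADU-S100 and olaparib tumors overlapped with vehicle. The combination difference was 0.89 (SE 0.58, adjusted p = 0.812, limma), 0.62 after median scaling and 0.59 without tumor 1251. It was 0.34 as a ratio to Ptprc, the pan-leukocyte gene CD45, in the same tumor. In combination against vehicle, 18.4% of all genes lay higher without overlap, and Il1a, Il1b and Il1rn were the 3 members of 8 that did.

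Tumor 1512, an ADU-S100 tumor, had the highest Il1a and the highest Il1b of the 12. It also had the highest sum of the 7 neutrophil markers in the table, 7776 against 723-3411 in the other 11 tumors. By group these sums were 1069-2226 in vehicle, 1952-7776 in ADU-S100, 723-3411 in olaparib and 1605-1797 in combination tumors, and no marker was at 0 in any tumor. The part of neutrophils in the Il1a and Il1b values was not tested. In these bulk samples more cells of a type and more RNA per cell cannot be told apart.

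Il1rn, the antagonist, had its highest group means in the groups given ADU-S100. Normalized counts were 326, 357 and 277 in the vehicle tumors, and 524, 562 and 756 in the ADU-S100 tumors. They were 310, 157 and 721 in the olaparib tumors, and 949, 678 and 873 in the combination tumors. Every ADU-S100 and every combination tumor exceeded every vehicle tumor, while olaparib tumors lay below, at and well above the vehicle level. Group means were 320 ± 40.2 in vehicle, 614 ± 125 in ADU-S100, 396 ± 292 in olaparib and 833 ± 140 in combination tumors (SD, n = 3 each).

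The log2 difference of Il1rn from vehicle was 1.37 (SE 0.50, unadjusted p = 0.0189, adjusted p = 0.456, limma) in combination tumors and 0.93 (SE 0.50, adjusted p = 0.809, limma) in ADU-S100 tumors. It was 0.04 (SE 0.50, adjusted p = 0.984, limma) in olaparib tumors. As a ratio to Ptprc, it was 0.82 in combination and 0.045 in ADU-S100 tumors. After median scaling these differences were 1.10, 0.43 and -0.33. The combination tumors, at 9.50-9.85, still lay above the vehicle tumors, at 8.07-9.09, on the median-scaled log2 scale, but the ADU-S100 tumors, at 8.13-9.81, did not. Combination tumors exceeded olaparib tumors by 1.33 (SE 0.50, adjusted p = 0.594, limma), with overlap through tumor 1521. Without tumor 1521 that difference was 1.90 with an adjusted p of 0.0307 (limma), and 54 of the 689 genes passed. Without tumor 1517 it was 0.80, and with the log2 factor as a covariate it was 0.65. With that covariate the ADU-S100 difference from vehicle was 1.46 (adjusted p = 0.411, limma). Il1rn had a Pearson r of -0.57 with the log2 factor over the 12 tumors, and -0.19 without the 2 tumors with extreme factors.

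When the 6 tumors given ADU-S100, alone or with olaparib, were set against the 6 not given it, Il1rn was 1.13 higher (exact two-sided permutation test over 924 splits, p = 0.00866). All 6 treated tumors were above the median of the other 6, and 3 of 6 above their maximum. This was the only one of 16 such tests, 8 genes for each drug, with a p under 0.05. In limma the adjusted p was 0.999, with 3.05% of genes at an unadjusted p under 0.05 and Il1rn ranked 4 of 689 by p. The difference was 0.93 after median scaling (exact permutation p = 0.132). It was 0.52 as a ratio to Ptprc (exact permutation p = 0.403), and 0.91 as a ratio to the sum of 11 macrophage and monocyte markers (exact permutation p = 0.0714). The summed macrophage and monocyte markers were 4108-8504 in vehicle, 4968-10345 in ADU-S100, 4253-7545 in olaparib and 5954-7615 in combination tumors, and Ptprc was 152-510, 287-1003, 193-456 and 391-423 in the same order.

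**Figure D2:**
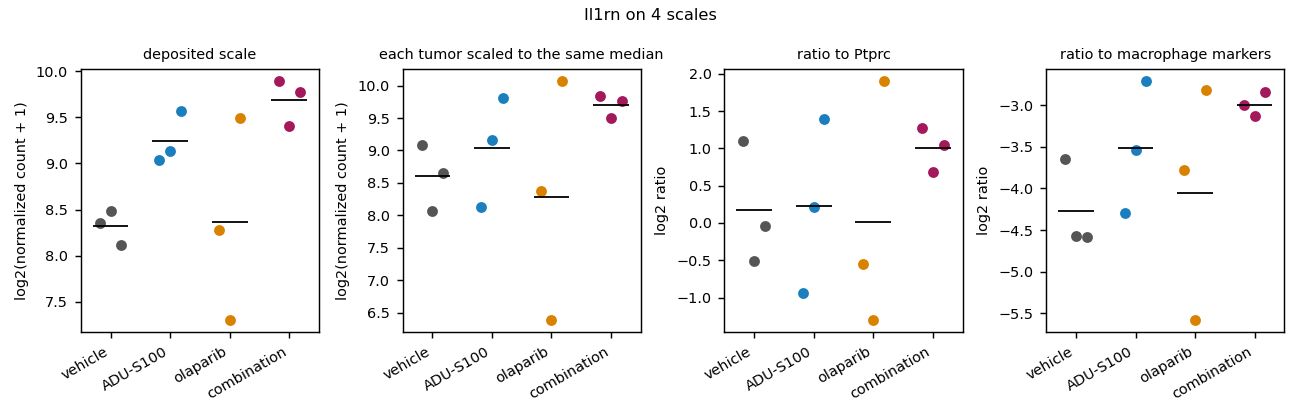
Il1rn in each tumor on 4 log2 scales, namely the deposited scale, the median-scaled values, the ratio to Ptprc and the ratio to summed macrophage and monocyte markers. Points are tumors grouped by treatment. The combination tumors lie above the vehicle tumors on every scale but the ratio to Ptprc, and the ADU-S100 tumors do so on the deposited scale only.

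Antagonist and ligand were also compared within a tumor, a comparison chosen after the values were seen. The ratio was taken between normalized counts + 1, so the scaling factor cancels nearly but not wholly. The ratio of Il1rn to Il1b was 4.3, 2.98 and 2.86 in the vehicle tumors and 3.5, 4.7 and 6.05 in the combination tumors. It was 3.98, 1.68 and 7.84 in the ADU-S100 tumors and 1.56, 2.48 and 10.1 in the olaparib tumors, so all groups overlapped with vehicle. Between tumors given ADU-S100 and not given it, the log2 ratio differed by 0.31 (exact permutation p = 0.532), and that of Il1rn to Il1a by 0.83 (exact permutation p = 0.171). The ratios compare 2 probes of unknown relative efficiency and are read only between tumors.

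Il1r1, the signaling receptor of both ligands, had its lowest group mean in the combination tumors. Its normalized counts were 268, 1383 and 380 in the vehicle tumors and 1416, 611 and 491 in the ADU-S100 tumors. They were 466, 2840 and 179 in the olaparib tumors, and 185, 211 and 254 in the combination tumors. The combination tumors lay below all vehicle and all ADU-S100 tumors, but overlapped with olaparib. The combination differed by -1.27 from vehicle (SE 0.91, adjusted p = 0.844, limma), by -1.80 from ADU-S100 (SE 0.91, adjusted p = 0.536, limma) and by -1.52 from olaparib (SE 0.91, adjusted p = 0.638, limma). Of all genes, 1.60% were lower without overlap in combination than in vehicle, and 20.9% lower than in ADU-S100.

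The normalized level of Il1r1 moved with the scaling factor. Its probe counts spanned only 228 to 930, a 4.08-fold range, while the factors spanned 17.8-fold and the normalized counts 15.9-fold. Across the 12 tumors the log2 level had a Pearson r of 0.89 with the log2 factor, which is part of the level itself, and 0.74 without the 2 tumors with extreme factors. With the log2 factor as a covariate, the difference between combination and olaparib became 0.07, that between combination and ADU-S100 became -0.42, and that between combination and vehicle was -1.15. Without olaparib tumor 1517 the difference from olaparib was -0.43, and without olaparib tumor 1521 it was -2.42. Without tumor 1529 the difference from vehicle was -0.57. After median scaling, the 3 differences were -1.55 from vehicle, -1.58 from ADU-S100 and -1.43 from olaparib. Summed fibroblast markers, from 6 genes of a cell type that expresses this receptor, were 16406-85438 in vehicle, 31959-52999 in ADU-S100, 4349-20603 in olaparib and 13714-27430 in combination tumors. Summed endothelial markers, from 5 genes, were 973-7071, 1299-5890, 403-21137 and 1179-1440 in the same order. The tumors with the 3 highest Il1r1 levels, 1517, 1506 and 1529, also had the 3 highest endothelial sums, 21137, 5890 and 7071, all above the other 9 tumors at 403-1590. The sums include the same scaling factor as Il1r1, and the part of either cell type in the Il1r1 values was not tested.

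**Figure D3:**
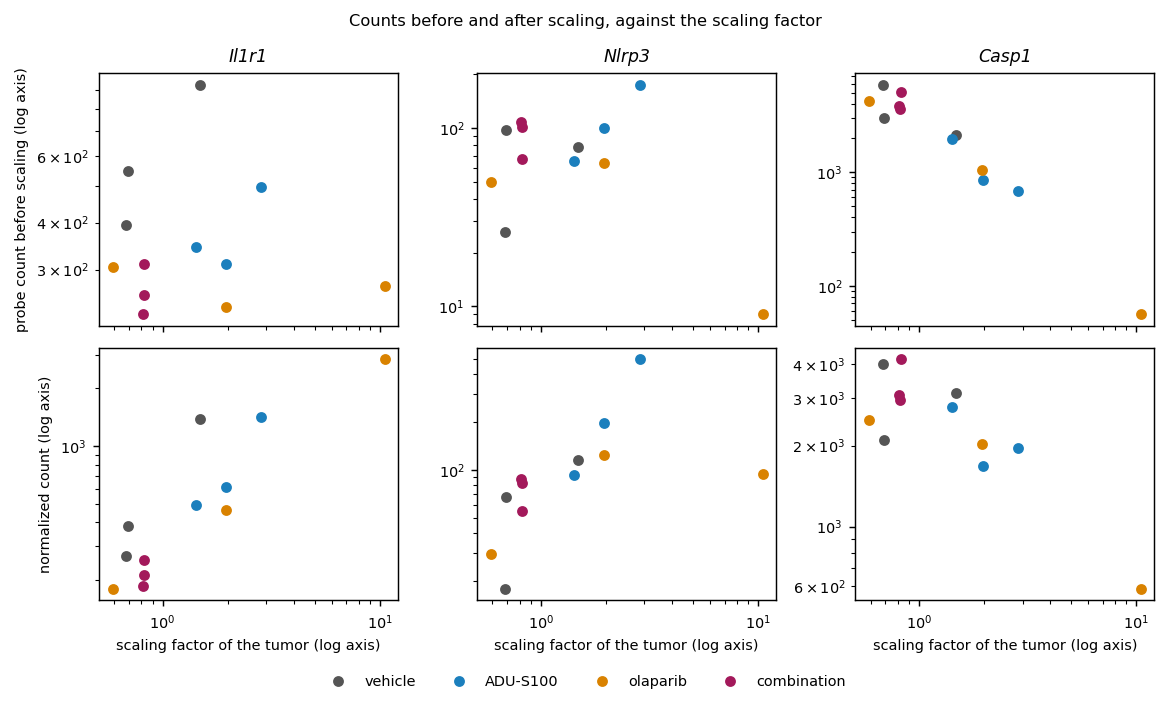
Il1r1, Nlrp3 and Casp1 in each tumor against the tumor's scaling factor (log axes), with probe counts above and normalized counts below. Points are tumors, colored by treatment. Il1r1 probe counts stay within 228-930 over a 17.8-fold range of factors, and Casp1 probe counts span 56 to 5882, lowest in the tumor with the largest factor.

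Il18, whose product needs caspase-1 cleavage as IL-1β does, varied least among the members, over a 3.24-fold range. Normalized counts were 237, 245 and 151 in vehicle and 330, 134 and 214 in ADU-S100 tumors. They were 433, 178 and 170 in olaparib and 199, 139 and 216 in combination tumors. All groups overlapped. The largest difference from vehicle was 0.19 (SE 0.49, adjusted p = 0.885, limma), in olaparib tumors, and it was -0.18 after median scaling, where the ADU-S100 and combination tumors both stood at -0.46.

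Nlrp3, the inflammasome sensor, was highest in the ADU-S100 group. Its normalized counts were 17.7, 116 and 67.9 in the vehicle tumors and 498, 196 and 92.7 in the ADU-S100 tumors. They were 125, 94.3 and 29.5 in the olaparib tumors, and 87.5, 83.3 and 54.9 in the combination tumors. Thus 2 of 3 ADU-S100 tumors exceeded all vehicle tumors and the remaining one lay between vehicle tumors. After median scaling all 3 lay above all vehicle tumors, at 6.80-8.06 against 4.93-6.64 (log2). The same held for the ratios to Ptprc and to the summed macrophage and monocyte markers. The share of all genes without overlap on these scales was not counted. The ADU-S100 difference from vehicle was 1.98 (SE 0.80, unadjusted p = 0.0297, adjusted p = 0.809, limma), 1.49 after median scaling, and 1.23 without vehicle tumor 1269. It was 1.10 as a ratio to Ptprc. Combination tumors lay below all ADU-S100 tumors, by 1.49 (log2 difference -1.49, SE 0.80, adjusted p = 0.544, limma), and -1.27 after median scaling. Without ADU-S100 tumor 1506 that difference was -0.87. Nlrp3 had a Pearson r of 0.57 and a Spearman rho of 0.89 with the scaling factor over the 12 tumors. Without the 2 tumors with extreme factors the Pearson r was 0.81. With the log2 factor as a covariate, ADU-S100 differed from vehicle by 1.32, and combination from ADU-S100 by -0.77. Probe counts before scaling were 65-175 in ADU-S100 and 67-108 in combination tumors, and the factors were 1.43-2.85 and 0.81-0.824.

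Pycard, the adaptor, was measured at 13 to 78 probe counts. Its normalized counts were 10.9, 31.2 and 29.8 in vehicle and 45.6, 25.5 and 25.7 in ADU-S100 tumors. They were 74.0, 178 and 7.66 in olaparib and 62.4, 19.8 and 64.0 in combination tumors. The olaparib tumors held both the highest and the lowest value of the 12, and all groups overlapped. The olaparib difference from vehicle was 1.10 (SE 0.94, adjusted p = 0.67, limma), 0.73 after median scaling and 0.16 without tumor 1517, whose 178 normalized counts were 17 probe counts with an exact 95% interval of 9.9 to 27.2. The olaparib difference was 2.35 without tumor 1521, and -0.24 with the log2 factor as a covariate.

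Casp1, encoding the protease that cuts both cytokines, had 4012, 3127 and 2091 normalized counts in the vehicle tumors and 1951, 1682 and 2788 in the ADU-S100 tumors. It had 2028, 587 and 2494 in the olaparib tumors, and 3078, 4180 and 2943 in the combination tumors. Every combination tumor exceeded every ADU-S100 and every olaparib tumor, and the combination overlapped with vehicle. The combination differed by 0.68 from ADU-S100 (SE 0.54, adjusted p = 0.657, limma) and by 1.22 from olaparib (SE 0.54, unadjusted p = 0.0436, adjusted p = 0.594, limma), or 0.90 and 1.32 after median scaling, where both pairs of groups overlapped, at 11.51-12.12 in combination, 10.02-11.69 in ADU-S100 and 8.28-11.86 in olaparib tumors (log2). Higher levels without overlap were found for 10.4% of all genes in combination against ADU-S100 and for 11.0% in combination against olaparib. Olaparib tumors differed from vehicle by -1.05 (SE 0.54, adjusted p = 0.582, limma).

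Casp1 levels went against the scaling factor, with a Pearson r of -0.85 over the 12 tumors and -0.49 without the 2 extreme tumors. Without olaparib tumor 1517, the tumor with the largest factor, the difference between combination and olaparib was 0.58 and that between olaparib and vehicle was -0.40. With the factor as a covariate, combination differed from ADU-S100 by 0.08 and from olaparib by 0.53. The interaction subtracts the ADU-S100 effect seen without olaparib from that seen with it. It was 1.73 for Casp1 (SE 0.76, unadjusted p = 0.0437, adjusted p = 0.435, limma), with 10.9% of genes at an unadjusted p under 0.05 in the interaction. With the number series as a block it was 1.26, and 0 members had an unadjusted p under 0.05. It was -2.05 for Il1r1 (SE 1.29, adjusted p = 0.451, limma) and -1.92 for Nlrp3 (SE 1.13, adjusted p = 0.439, limma). The median gene had an interaction of -0.55 on the deposited scale and 0.04 after median scaling, where Casp1, Il1r1 and Nlrp3 stood at 2.32, -1.46 and -1.33. With the log2 factor as a covariate the interaction was 0.49 for Casp1, 0.79 for Il1r1 and -0.43 for Nlrp3. It was 1.08 for Casp1 and -0.95 for Il1r1 without olaparib tumor 1517, and -1.16 for Nlrp3 without vehicle tumor 1269.

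**Figure D4:**
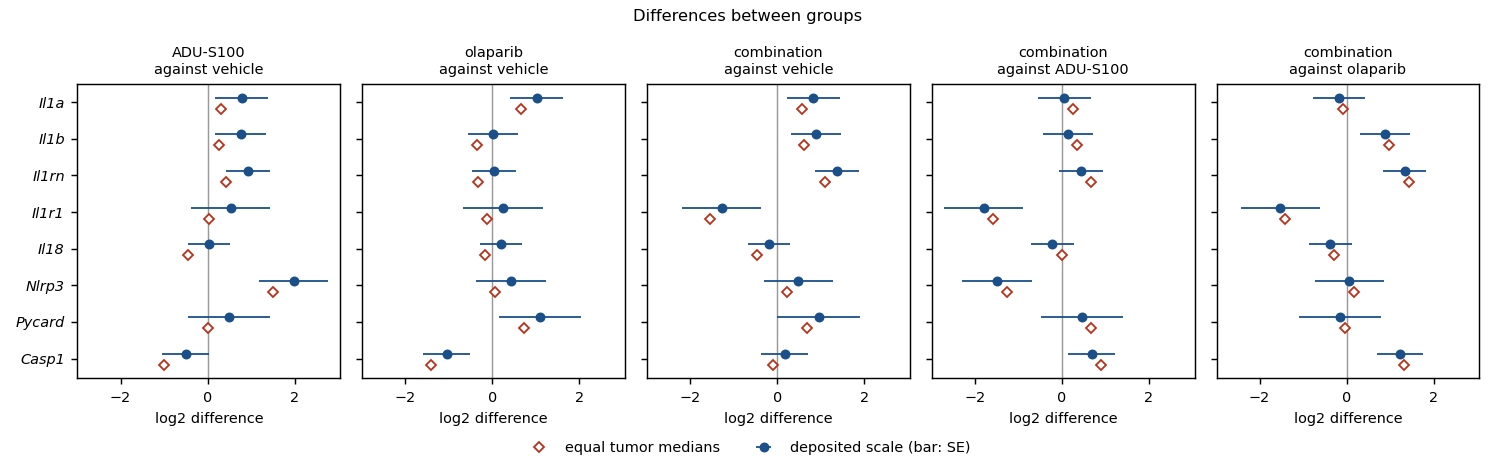
Log2 differences of the 8 genes in 5 pairwise comparisons. Blue points are differences on the deposited scale with their standard errors from limma, and red diamonds are the differences after median scaling. Il1rn stands at 1.37 and Il1r1 at -1.27 in combination against vehicle, and no value passed an adjusted p of 0.05.

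In order of mean log2 level, neighboring groups overlapped for nearly every member. The exceptions were Il1r1, where vehicle, the third group, did not overlap with combination, the lowest, and Nlrp3, where ADU-S100, the highest, did not overlap with combination, the next. The median difference from vehicle over the 8 members was 0.64 for ADU-S100, 0.22 for olaparib and 0.66 for the combination, beside 0.44, 0.45 and 0.21 over all genes tested. After median scaling the members' medians were 0.15, -0.15 and 0.40. Averaged over both olaparib contrasts, olaparib given against not given, 0 of 8 members passed (limma), none passed at an unadjusted p under 0.05, where 7.55% of genes did, and the lowest exact permutation p was 0.234 on the deposited scale, for Il1a, and 0.117 over the other scales, for Il1r1 after median scaling.

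Correlations between pairs of members over the 12 tumors had both signs. Of 28 pairs, 6 had a Pearson and 1 a Spearman correlation with a permutation p under 0.05. After adjustment over the pairs 0 passed, which with 12 tumors does not show that the members varied apart. The Spearman pair was Il1r1 and Nlrp3, with rho = 0.741 (permutation p = 0.00789, adjusted 0.221). Its r was 0.585 (permutation p = 0.0446, adjusted 0.208), and 0.216 after median scaling. Il1a and Il1b had r = 0.72 (permutation p = 0.00839, adjusted 0.117) and rho = 0.503 (permutation p = 0.1, adjusted 0.494), with r = 0.671 within the 9 tumors numbered from 15. Without the 2 tumors of most extreme Il1a, r was 0.424, over a range of Il1a that the removal itself narrows. After median scaling r was 0.794 for Il1a and Il1b. Il1rn and Casp1 had r = 0.617 (permutation p = 0.0288, adjusted 0.161) and rho = 0.406 (permutation p = 0.194, adjusted 0.494). Their r was 0.08 without the 2 tumors of most extreme Il1rn and 0.813 after median scaling. Il1r1 and Casp1 had r = -0.713 (permutation p = 0.00715, adjusted 0.117) and rho = -0.58 (permutation p = 0.0519, adjusted 0.423), with r = -0.322 without the 2 tumors of most extreme Il1r1 and -0.692 after median scaling. Il1rn and Il1r1 had r = -0.646 (permutation p = 0.0239, adjusted 0.161) and rho = -0.573 (permutation p = 0.0562, adjusted 0.423), with r = -0.486 without the 2 tumors of most extreme Il1rn and -0.846 after median scaling. The levels of each pair include the same scaling factor.

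The genes with the most similar pattern to each member were listed by Pearson r of log2 levels over the 12 tumors, of 688 other genes, with no test since they were picked as the highest. They were Ccl3 (0.841), Tnf (0.788) and Cxcl2 (0.725) for Il1a, and Cxcl2 (0.843), Csf3r (0.789) and Il1a (0.72) for Il1b. Ccl3 and Cxcl2 encode chemokines of myeloid cells and Csf3r the G-CSF receptor of neutrophils. Il1rn went most closely with Tfe3 (0.934), Cebpb (0.844) and Lcn2 (0.786), and Casp1 with Tgfb2 (0.955), Lcn2 (0.921) and Lamp1 (0.893). Il18 went with Anxa1 (0.857), Vhl (0.852) and Ifitm2 (0.841). After median scaling these 15 values lay between 0.753 and 0.977.

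Il1r1, Nlrp3 and Pycard rose with the scaling factor, with Pearson r of 0.89, 0.57 and 0.71. Casp1 and Il1rn, named above, fell with it, at -0.85 and -0.57. The closest genes were Il3ra (0.969), Cd1d2 (0.964) and Il4ra (0.955) for Il1r1. For Nlrp3 they included C3ar1 (0.949) and Ptprc (0.933), both leukocyte genes. Pycard went with Ccr7 (0.899), Rps6 (0.843) and Il17b (0.838). After median scaling the value for Rps6, a ribosomal protein gene, fell to 0.245, and those for Ccr7 and Il17b were 0.776 and 0.686. Those for the genes named here for Il1r1 and Nlrp3 lay between 0.808 and 0.931.

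The rest of the pathway was read from a list of ligands, decoy and accessory receptors, adaptors, kinases, other inflammasome genes and IL-1-induced genes, of which 30 were in the table and all 30 were tested. None passed an adjusted p of 0.05 in any comparison (limma). In ADU-S100 against vehicle 23 were higher and 7 lower, in olaparib against vehicle 22 and 8, and in combination against vehicle 22 and 8, with median differences of 0.69, 0.37 and 0.22 beside 0.44, 0.45 and 0.21 over all genes. At an unadjusted p under 0.05, 0, 2 and 1 of the 30 were higher, beside 32, 40 and 52 of the 689 genes. Without overlap, Csf2 and Cxcl5 were higher in ADU-S100 than in vehicle tumors, where 13.9% of all genes were. Ripk2 and Tnf were higher in olaparib than in vehicle tumors, where 3.77% of all genes were. Cxcl1, Cxcl2, Myd88 and Tnf, 4 of 30, were higher in combination than in vehicle tumors, where 18.4% of all genes were.

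In the interaction, 0 of the 30 were higher and 3 lower at an unadjusted p under 0.05, beside 13 and 62 of the 689 genes. These were Nos2 (-2.89), Csf3 (-2.45) and Csf2 (-2.26), with adjusted p-values of 0.357, 0.439 and 0.346 (limma) and values of -2.31, -1.86 and -1.68 after median scaling.

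Tnf and Ptgs2 are given as examples chosen after the values were seen. Tnf, encoding the inflammatory cytokine TNF, was 43.6-71.6 in vehicle and 91.0-135 in combination tumors, a difference of 1.11 (SE 0.48, unadjusted p = 0.0414, adjusted p = 0.594, limma). In olaparib tumors Tnf differed from vehicle by 1.20 (SE 0.48, unadjusted p = 0.0295, adjusted p = 0.582, limma), and combination differed from olaparib by -0.09. After median scaling Tnf stood at 0.83 against vehicle in both. Ptgs2, encoding the prostaglandin-forming enzyme COX-2, was 238-493 in ADU-S100 and 16.5-91.0 in combination tumors, a difference of -2.84 (SE 0.91, unadjusted p = 0.00935, adjusted p = 0.492, limma), and -2.62 after median scaling. Csf2, Il1rl1 and Nos2 were the other 3 of the 30 that were lower in combination than in ADU-S100 tumors without overlap, 4 of 30 beside 20.9% of all genes. The receptors Il1r2, Il1rap, Il18r1 and Il18rap overlapped between each single or combined treatment and vehicle. Il18bp, Il33, the IL-36 ligands, Aim2, Casp4 and Gsdmd were not analysed here.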

How the data were processed

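The processed table held 12 tumors and 750 genes. Per the labels and methods, 100 ng of RNA per tumor was counted on an nCounter mouse immune panel, and the authors corrected background and scaled the counts in nSolver 4.0 to positive controls and 8 housekeeping genes. The deposited values are a linear signal (normalized counts). Tumors were grouped by the agent in their labels. In each tumor, at least 99.86% of values were whole multiples of 1 step within 0.01, which gave the probe counts and scaling factors used here, and 12 values at the floor of 1 were set aside as 0 counts. A step taken from the smallest value alone gave whole multiples in 5 of 12 tumors. In the other 7 the smallest value was the floor or stood for more than 1 count, so the counts serve for description and were not tested. Intervals cover counting error only, and any background taken off before scaling is not counted in them. No background level was set beside the low counts.

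Genes with at least 20 in at least 3 tumors (689) were fitted as log2(value + 1) with limma 3.58.1 in R 4.3.3 (lmFit, contrasts.fit, eBayes), with 1 mean per group and Benjamini-Hochberg adjustment over all of them. The comparisons of 6 tumors with 6 were added after seeing the data. Exact and permutation tests used scipy 1.17.1 and were two-sided. With 3 tumors against 3 they cannot go below 0.1, so none was run. The limma script was tested on simulated data.

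All 8 genes are named with every tumor's value. Differences are named at a log2 size of at least 1 or where groups do not overlap, and others where they complete a comparison. Of the pathway list, genes of size 1.5 or more against vehicle without overlap, or past the threshold, were to be named, and none met this. Other pathway genes are named because of their values. The genes and lists were chosen with earlier results of these data known. Alternatives covered the pseudocount, filter, scaling, covariates, test and each tumor left out. Motifs were searched in RefSeq promoter windows (GRCm38.p6). Panel probe positions were not used here. For each gene the 3 most similar genes were sought, and 1 of them is not reported here.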

Additional observations from a re-analysis of the deposited data

Results flagged for a closer look

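The effect of ADU-S100 on Casp1, which encodes caspase-1, differed by 1.73 on the log2 scale between tumors with and without olaparib. All 3 ADU-S100 tumors lay below the vehicle mean and all 3 combination tumors above the olaparib mean. The interaction had an unadjusted p of 0.0437 and an adjusted p of 0.435 (limma). It was 1.26 with the number series as a block, where 0 members had an unadjusted p under 0.05. Without olaparib tumor 1517 the interaction was 1.08, and without olaparib tumor 1521 it was 2.13. With the log2 scaling factor as a covariate it was 0.49, and the part of the scaling in it was not tested further.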

How the results depend on the processing

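Of 495 alternative values for 20 named differences, 491 kept their direction and their side of the threshold. Many could not change the difference, such as another filter or leaving out a tumor of a group not compared. No main value passed the threshold, so keeping its side means only that it was still not called. Large falls also count as kept, such as Il1rn in ADU-S100 against vehicle from 0.93 to 0.045 as a ratio to Ptprc. With the log2 scaling factor as a covariate, 3 turned direction, namely Pycard in olaparib against vehicle (-0.24), Il1r1 in combination against olaparib (0.07) and the Il1r1 interaction (0.79), and the cause was not tested. The number of members called was 0 under 149 of 150 alternatives. The exception was combination against olaparib, where leaving out each tumor in turn gave 0 to 1, with Il1rn called at 1.90 (adjusted p = 0.0307, limma) without olaparib tumor 1521. Il1rn in combination against vehicle ranged from 1.27 to 1.51 with each tumor left out and from 0.82 to 1.38 under other settings, with adjusted p-values from 0.0674 to 0.999 (limma).

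The methods' t-test was among these alternatives and called no member after Benjamini-Hochberg adjustment. The planned edgeR tests were not run, because a step from the smallest value alone gave whole counts in 5 of 12 tumors only. No paired analysis was possible because the groups share no tumor numbers. Tumor numbers beginning with 12 belong to 1 vehicle and 2 combination tumors, and with the number series as a block Il1rn in combination against vehicle was 1.38. By their highest probe count Il1a and Pycard were the lowest members, at 4 to 79 and 13 to 78 per tumor. The lowest counts were 6 for Il1b and 9 for Nlrp3.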
